A study of Mus musculus with 6 samples.

Results

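This report describes 10 genes of alternative macrophage activation and the interleukin-4 (IL-4) response in sorted mouse cardiac macrophages. They were taken by name: the receptor chain gene Il4ra, the feedback genes Cish and Socs2, the nuclear receptor genes Pparg and Ppard, and the effector genes Retnla, Chil3, Arg1, Ear2 and Tgm2. All 10 were found among the 35865 annotated genes, and all 10 passed the filter on low counts that left 16386 genes for testing. RNA was sequenced from macrophages sorted out of digested hearts on the C57BL/6J strain, with 3 libraries from Tet2 KO and 3 from Tet2 WT donors. In both groups the sorted cells derived from donor haematopoietic progenitor cells. Tet2 encodes an enzyme that oxidises methylated cytosines, and blood clones that lack it often expand with age. By its title the series is about such clones and the ageing heart in nonconditioned mice. The age and sex of the mice, the sort gate and the part of Tet2 deleted are not given in the sources used here. Whether the 3 libraries per genotype come from different mice is not stated in the labels, so p-values reflect only how these libraries vary, and that variation may be technical.

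IL-4 and IL-13 act on macrophages through a receptor that holds the IL-4 receptor alpha chain, paired with the common gamma chain or with IL-13 receptor alpha 1. Janus kinases on these chains phosphorylate STAT6, which enters the nucleus and switches on the genes by which alternatively activated macrophages are known, among them Arg1, Retnla and Chil3 in the mouse. PPARG and PPARD are lipid-sensing nuclear receptors that are induced in this state or sustain it, and CISH and SOCS2 are feedback inhibitors induced chiefly by STAT5. In tissue repair, including that of the heart, macrophages with this programme are known for clearing debris and for exchanges with fibroblasts.

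The libraries held between 37349505 and 55771087 estimated counts. Tet2 itself was at 33.7, 27.7 and 29.1 TPM (transcript abundance scaled by length and library) in Tet2 KO and at 23.3, 26.1 and 24.6 TPM in Tet2 WT, and was not lower in Tet2 KO (log2 fold change 0.32 ± 0.14 SE, edgeR adjusted p = 0.159). Without a known deleted part these reads do not test the knockout. The cells carried macrophage transcripts in both groups: 16 pan-macrophage markers, such as Adgre1 and Csf1r, summed to 32553 to 39029 CPM (counts scaled to library size) in Tet2 KO and 20681 to 28156 CPM in Tet2 WT. A further 18 markers of fibroblasts, such as the collagen gene Col1a1, summed to 2186 to 4105 CPM in Tet2 KO libraries, against 16737 to 31317 CPM in Tet2 WT. Both sums differed with no overlap (exact permutation test, two-sided p = 0.1 each, the smallest that 3 against 3 libraries can give). Of the fibroblast markers 17 of 18 were called lower in Tet2 KO, and of the pan-macrophage markers 14 of 16 were called higher. None of the markers in either list was at 0 in all libraries. A few genes carried most of each sum. With the scaling used for single genes, Lyz2 averaged 21952 of 37759 CPM in Tet2 KO and 13659 of 23118 CPM in Tet2 WT. It therefore weighs most in any scaling to the pan-macrophage markers. Of the fibroblast sum, Gsn and Dcn averaged 2274 and 693 of 3569 CPM in Tet2 KO. In Tet2 WT they averaged 13402 and 5241 of 23586 CPM. In bulk libraries of this kind, fewer cells of a type and less RNA per cell cannot be told apart.

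A gene was called changed at an adjusted p under 0.05 in edgeR's quasi-likelihood test across all tested genes. Of the 10 genes 4 were called, or 40%, while 16.2% of all tested genes were called. Higher in Tet2 KO were Il4ra and Pparg (2 of 10, against 6.11% of tested genes called higher), and lower were Socs2 and Tgm2 (2 of 10, against 10.1% called lower). The other 6, Retnla, Chil3, Arg1, Ear2, Cish and Ppard, did not pass the test. The groups' libraries did not overlap in CPM for the same 4 genes, and for 34.5% of all tested genes. The median log2 fold change of the 10 was 0.43, beside 0.00 for all tested genes. Scaled to the pan-macrophage markers instead of by the trimmed mean of M-values (TMM), the median of all genes shifted by -0.71 on the log2 scale. Under that scaling Socs2 and Tgm2 were called lower and no other gene of the 10 was called. Many more of all tested genes were then called lower than under TMM scaling, and very few higher. The 2 of 10 called lower were a smaller share than that among all tested genes. As a count of calls, this therefore does not set Socs2 and Tgm2 apart under that scaling. The count leaves aside how far the 2 genes lay below the median of all genes.

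**Figure D1:**
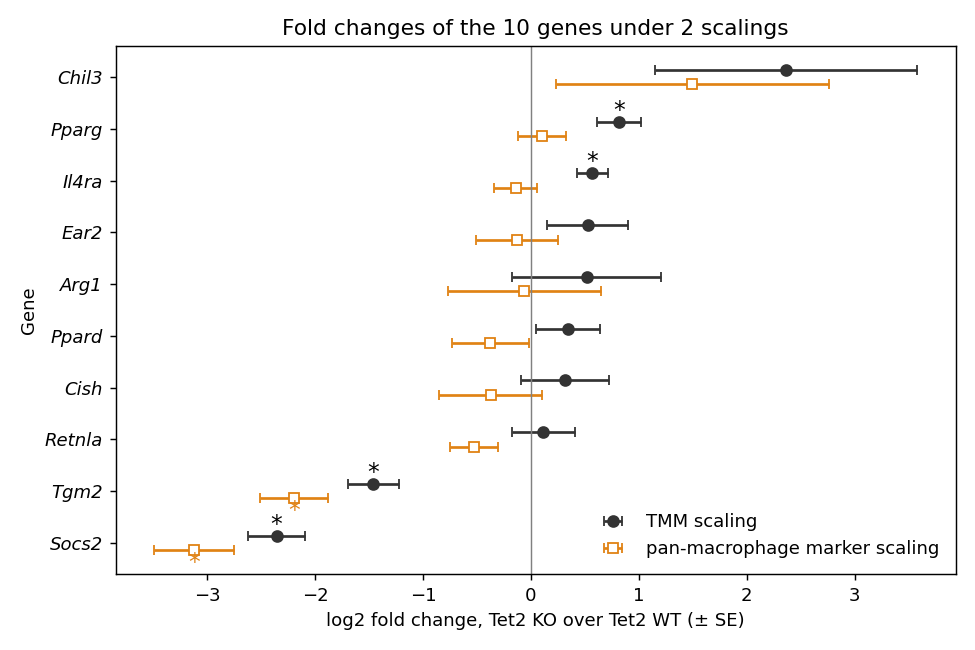
Log2 fold changes, Tet2 KO over Tet2 WT, of the 10 genes with their standard errors, under TMM scaling (filled circles) and pan-macrophage marker scaling (open squares); asterisks mark an edgeR adjusted p under 0.05. Socs2 and Tgm2 lay below 0 and were called under both scalings. Under the marker scaling nearly all genes called among all tested genes were lower. Il4ra and Pparg, at 0.57 and 0.82 under TMM scaling, lay at -0.14 and 0.10 under the marker scaling.

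Levels spanned more than 3 orders of magnitude. On the TPM scale, which accounts for transcript length, Retnla stood far above the rest, at a mean of 3275 TPM in Tet2 KO libraries and 3371 TPM in Tet2 WT. In Tet2 KO it was followed by Il4ra (66.3 ± 3.24 TPM, SD, n = 3) and Ear2 (60.7 ± 19.0 TPM), whose libraries overlapped. Pparg (23.2 ± 4.89 TPM) came next and was separate from both neighbours in Tet2 KO, and Socs2, Tgm2 and Ppard followed at 10.9 ± 2.63, 7.93 ± 2.02 and 6.05 ± 1.44 TPM, each overlapping the next. In Tet2 WT the order differed. Socs2 stood second at 57.2 ± 17.9 TPM, overlapping Il4ra (49.0 ± 7.94 TPM) and Ear2 (47.1 ± 22.1 TPM), and Tgm2 at 24.1 ± 5.85 TPM lay above Pparg at 15.5 ± 2.47 TPM, with overlap. Chil3, Cish and Arg1 were the 3 lowest in both groups, at a mean of 3.72 TPM or less. Their libraries overlapped in Tet2 KO, and in Tet2 WT Cish (1.49 to 1.82 TPM) lay above Chil3 (0.579 to 1.26 TPM) with Arg1 across both.

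**Figure D2:**
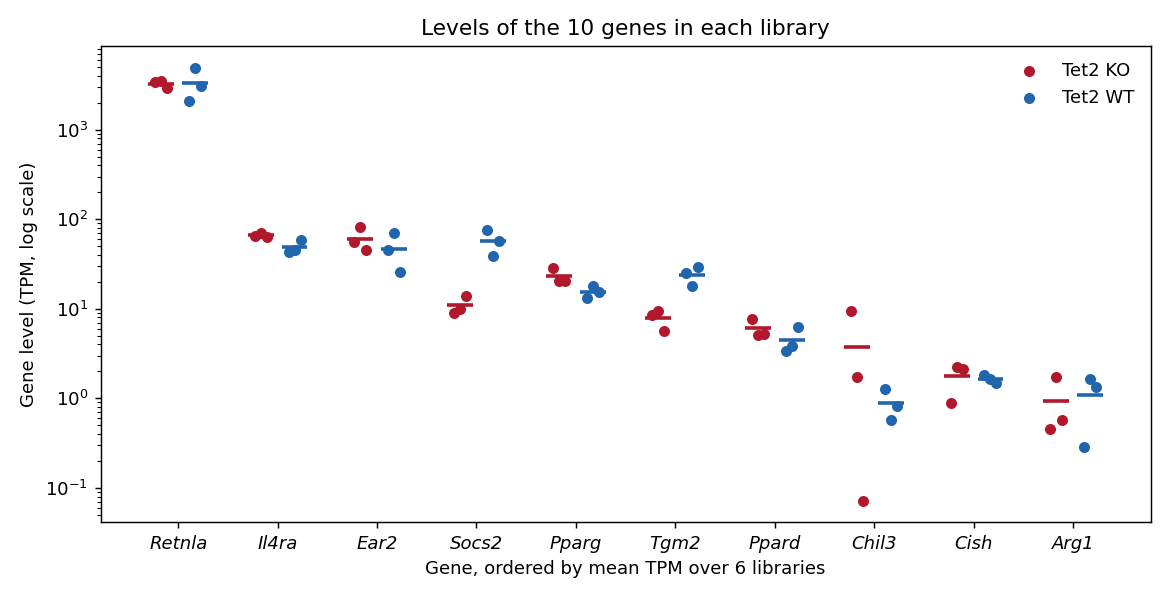
Level in TPM on a log axis of each of the 10 genes in each of the 6 libraries, Tet2 KO left and Tet2 WT right; points are libraries and bars are means of 3. The Tet2 KO and Tet2 WT points are separate for Il4ra, Socs2, Pparg and Tgm2, and Chil3 in Tet2 KO runs between 0.0720 and 9.33 TPM.

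Il4ra encodes the chain that IL-4 and IL-13 receptors share. The gene (ENSMUSG00000030748.9; GRCm38 chromosome 7, 125552120 to 125579474, plus strand) was at 183, 208 and 180 CPM in Tet2 KO libraries, against 112, 121 and 151 CPM in Tet2 WT. Every Tet2 KO library was above every Tet2 WT library, and Tet2 WT replicate 3 came closest. The log2 fold change of Il4ra was 0.57 ± 0.14 (edgeR adjusted p = 0.0246). Il4ra lost its call without Tet2 KO replicate 3, Tet2 WT replicate 1 or Tet2 WT replicate 2 (edgeR adjusted p = 0.0639, 0.102 and 0.0717). The ratio of Il4ra to the macrophage receptor gene Csf1r, in TPM within a library, was 0.0571, 0.0706 and 0.0515 in Tet2 KO and 0.0774, 0.0568 and 0.0690 in Tet2 WT, so the groups overlapped on that measure.

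Most Il4ra signal was assigned to a transcript with an additional exon. Il4ra-205 (ENSMUST00000206846.1), annotated as subject to nonsense-mediated decay, has 12 exons, and Il4ra-201 (ENSMUST00000033004.7), which encodes the full receptor chain, has 11. Exon 8 of Il4ra-205 (GRCm38 chr7:125571934-125572047, plus strand, 114 bases) is absent from Il4ra-201 and holds the annotated stop codon, which begins at base 18 of the exon. In the mouse an insertion of this kind ahead of the membrane-spanning part is known to give a soluble form of the receptor chain, which binds IL-4 outside the cell. The exon is shown because it separates the receptor transcripts that the counts were divided between, with the stop codon in capitals.
Il4ra-205 exon 8: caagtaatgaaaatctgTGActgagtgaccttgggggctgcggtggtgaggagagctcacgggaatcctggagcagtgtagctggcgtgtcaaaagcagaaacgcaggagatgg

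Il4ra-205 stood at 41.6, 42.0 and 39.9 TPM in Tet2 KO libraries, against 24.1, 30.0 and 33.3 TPM in Tet2 WT, with no overlap. Il4ra-201 was at 14.9, 18.6 and 15.5 TPM in Tet2 KO libraries and 12.3, 10.7 and 18.9 TPM in Tet2 WT, and there the groups overlapped. Il4ra-205 made up 63.5%, 60.1% and 62.8% of the gene's TPM in Tet2 KO libraries and 55.2%, 66.2% and 57.3% in Tet2 WT, so its share overlapped between the groups. The transcripts also differ at both ends, and reads that fit several transcripts are apportioned by kallisto's model, so these values cannot be tied to the exon alone. Over the 10 genes, 52 transcripts were listed, 44 had counts and 17 averaged at least 1 TPM. With no overlap between the groups, Tet2 KO was higher for 4 of the 17 and lower for 5, beside 24.4% of all transcripts at that level with no overlap. The higher ones were Il4ra-204 and Ppard-209, both annotated as retained introns, Il4ra-205, and Pparg-204, the only one annotated as protein-coding. The lower ones were the coding Tgm2-201, Socs2-201 and Socs2-202, and Socs2-207 and Socs2-210, annotated as processed transcripts. Several thus belong to the same gene and do not count as independent of each other.

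**Figure D3:**
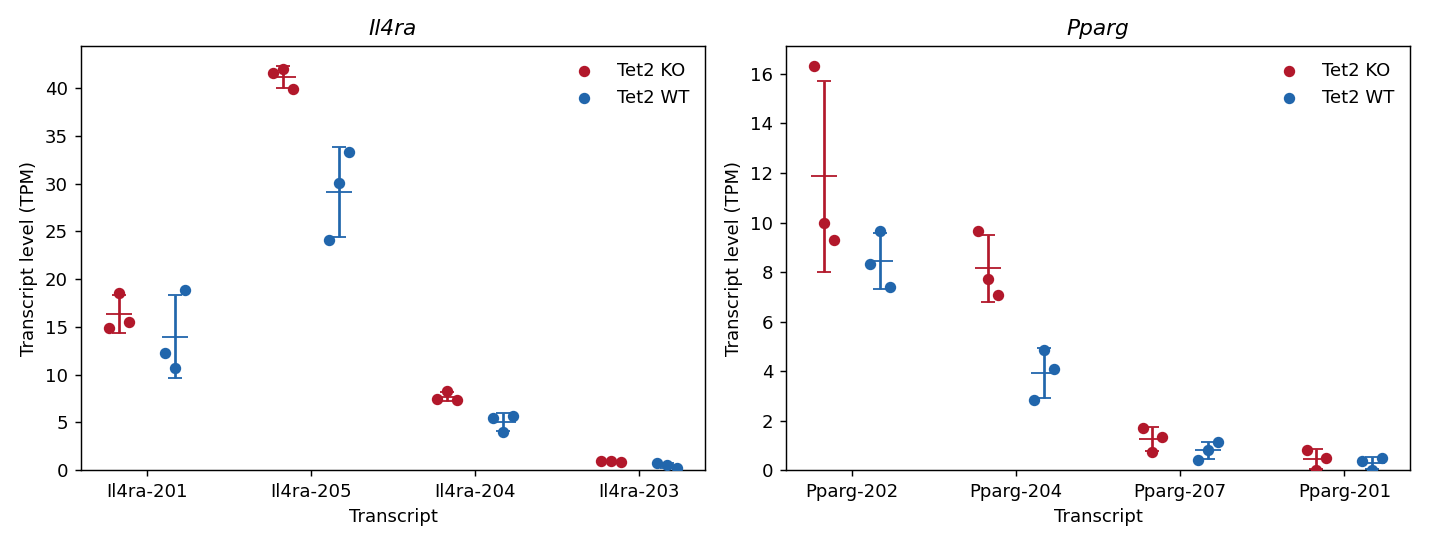
Level in TPM of 4 Il4ra transcripts (left) and 4 Pparg transcripts (right) in each library, Tet2 KO left of Tet2 WT, with the mean and SD of 3 libraries. Il4ra-205 averaged 41.2 TPM in Tet2 KO libraries and 29.1 TPM in Tet2 WT, Pparg-204 averaged 8.15 and 3.91 TPM, and Pparg-201 stayed below 1 TPM in every library.

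Around the receptor, 6 of 12 tested genes for IL-4 and IL-13 ligands, receptors and signalling were called higher and 0 lower. That is 50% called, beside 16.2% of all tested genes, and the list's median was 0.58 on the log2 scale. The median of the pan-macrophage markers was 0.74. Il2rg, the common gamma chain, averaged 208 ± 30.3 CPM in Tet2 KO libraries and 102 ± 17.7 CPM in Tet2 WT (log2 fold change 1.03 ± 0.16, edgeR adjusted p = 0.00241). Ptpn6, a phosphatase that damps Janus kinase signalling, rose by 0.95 ± 0.15, and Jak3, the kinase bound to the gamma chain, rose by 0.89 ± 0.18. Il13ra1, the IL-13 receptor chain, rose by 0.65 ± 0.17, Stat6 by 0.61 ± 0.17 and the phosphatase gene Ptpn1 by 0.54 ± 0.12. Under pan-macrophage scaling none of these 6 was called: Il2rg, Ptpn6 and Jak3 had 0.32, 0.23 and 0.20, while Il13ra1, Stat6 and Ptpn1 turned to -0.07, -0.12 and -0.17. Jak1 did not pass the test (0.12 ± 0.14, edgeR adjusted p = 0.638), and under that scaling it was called lower (-0.62, edgeR adjusted p = 0.0127). With single libraries left out, the calls of Il13ra1 (without Tet2 KO replicate 1 or 3 or Tet2 WT replicate 1 or 3), Stat6 (without Tet2 KO replicate 1 or 3 or Tet2 WT replicate 1 or 2) and Ptpn1 (without Tet2 KO replicate 3 or Tet2 WT replicate 1 or 3) were lost, at edgeR adjusted p-values from 0.0734 to 0.115, 0.0848 to 0.129 and 0.0544 to 0.0591.

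Transcripts of the ligands themselves were scarce. Il4 had 62, 33 and 29 estimated counts in Tet2 KO and 39, 46 and 15 in Tet2 WT (log2 fold change 0.68 ± 0.64, edgeR adjusted p = 0.552), and the groups overlapped. Il13 had 1 count in Tet2 KO replicate 2 and 0 in the other 5 libraries, and was not tested.

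Among factors that IL-4 induces, 1 of 12 tested genes was called higher and 2 lower, 25% in all, beside 16.2% of all tested genes. The list median was 0.15. Egr2, a transcription factor of the IL-4 response, averaged 64.9 ± 10.5 CPM in Tet2 KO libraries and 36.6 ± 2.38 CPM in Tet2 WT (0.83 ± 0.15, edgeR adjusted p = 0.00456; 0.10 and not called under pan-macrophage scaling). Irf4 and the histone demethylase gene Kdm6b, both known from the IL-4 response, did not pass the test, at 0.19 ± 0.21 and 0.12 ± 0.37 (edgeR adjusted p = 0.624 and 0.878). The related repressor genes Bhlhe40 and Bhlhe41 fell, by 1.90 ± 0.25 and 0.99 ± 0.26 on the log2 scale. Fibroblast markers fell with them, with a median of -3.01, and their part in these falls was not tested. Within Tet2 WT, Bhlhe40 had the library order of the fibroblast marker sum. Within Tet2 KO its order differed, and that of Bhlhe41 differed in both genotypes. Bhlhe41 lost its call in each of the fits without 1 library other than Tet2 KO replicate 2 (edgeR adjusted p from 0.0773 to 0.113).

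**Figure D4:**
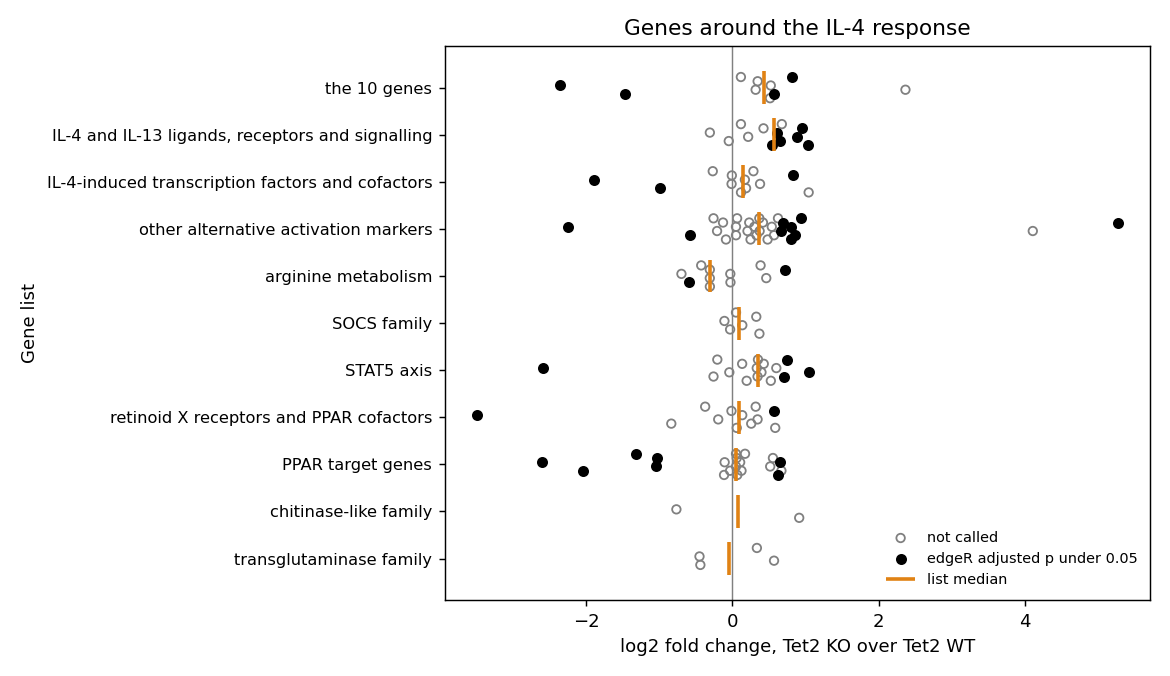
Log2 fold changes, Tet2 KO over Tet2 WT, of the tested genes in each list, with called genes filled and the list median as a vertical bar. The receptor and signalling list has its 6 called genes above 0 and a median of 0.58, whereas the PPAR target list has 5 called genes below 0, 2 above and a median of 0.06.

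Socs2, a suppressor of cytokine signalling best known for restraining growth hormone and STAT5 signalling, showed the largest absolute change of the called genes among the 10. The gene (ENSMUSG00000020027.18; chromosome 10, 95385362 to 95417180, minus strand) was at 6.65, 8.07 and 9.35 CPM in Tet2 KO libraries, against 55.8, 27.4 and 40.2 CPM in Tet2 WT. The lowest Tet2 WT library held more than the highest Tet2 KO library, and the Tet2 WT libraries differed among themselves by 2.03-fold. The log2 fold change of Socs2 was -2.36 ± 0.26 (edgeR adjusted p = 0.000377), and it was called lower in all 19 alternative settings (-3.12 to -1.95). The main coding transcript Socs2-202 was at 4.44, 4.73 and 6.43 TPM in Tet2 KO libraries and 37.4, 16.6 and 22.7 TPM in Tet2 WT, and Socs2-201 averaged 1.49 TPM in Tet2 KO libraries and 10.5 TPM in Tet2 WT. Both were separate between the groups.

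The order of Socs2 within Tet2 WT, replicate 1 above replicate 3 above replicate 2, was also that of the fibroblast marker sum (31317, 26654 and 16737 CPM). In Tet2 KO the orders differed: Socs2 was lowest in replicate 1, where the fibroblast sum was highest, with sums of 4105, 2186 and 3822 CPM in replicates 1, 2 and 3. Relative to the fibroblast receptor gene Pdgfra, the level of Socs2 in TPM was 1.03, 2.72 and 1.42 in Tet2 KO and 0.907, 0.934 and 0.860 in Tet2 WT. Relative to Col1a2 it was 0.676, 1.03 and 0.984 in Tet2 KO and 0.592, 0.507 and 0.461 in Tet2 WT. Ghr, the growth hormone receptor gene, fell by 2.59 ± 0.28 on the log2 scale, to 11.9 ± 3.47 CPM in Tet2 KO, against 71.5 ± 21.0 CPM in Tet2 WT. The part of fibroblast RNA in the Socs2 result was not tested. The tested protein-coding genes whose centred log2 CPM profile over the 6 libraries lay nearest to that of Socs2 were Ncald, the chemokine gene Ccl19 and the glutathione transferase gene Gstt1. Their root mean square differences from Socs2 were 0.09, 0.10 and 0.11 log2 units, where the profile of Socs2 itself varied by 1.17.

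**Figure D5:**
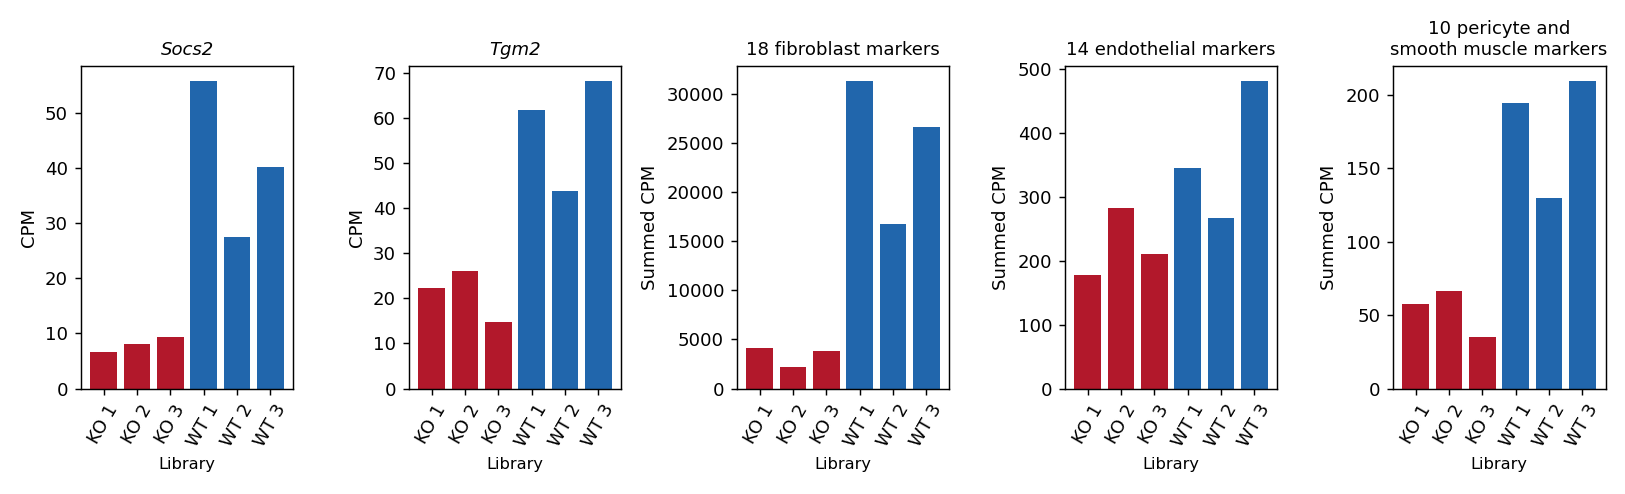
CPM of Socs2 and Tgm2 and summed CPM of 18 fibroblast, 14 endothelial, and 10 pericyte and smooth muscle markers in each library, Tet2 KO left and Tet2 WT right. The Tet2 KO bars lie below all Tet2 WT bars in every panel but the endothelial one, where Tet2 KO replicate 2 at 282 CPM lies above Tet2 WT replicate 2 at 267 CPM.

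Cish, which encodes a STAT5-induced inhibitor of cytokine receptors and a relative of SOCS2, was not called. Cish (ENSMUSG00000032578.7; chromosome 9, 107296026 to 107302784, plus strand) was at 1.90, 5.76 and 5.19 CPM in Tet2 KO libraries and 3.8, 3.22 and 3.32 CPM in Tet2 WT. Tet2 KO replicate 1 was the lowest library and the other 2 Tet2 KO libraries the highest, so the groups overlapped (0.32 ± 0.41, edgeR adjusted p = 0.674). The TPM ratio of Cish to Socs2 was 0.1, 0.225 and 0.154 in Tet2 KO and 0.0242, 0.0414 and 0.0261 in Tet2 WT. Of the 6 SOCS genes beside these, 0 were called by edgeR, DESeq2 or limma voom, and 1 had an unadjusted p under 0.05. Socs1 and Socs3 had 0.05 ± 0.25 and 0.33 ± 0.16 (edgeR adjusted p = 0.924 and 0.215). Of these, Socs3 was called without Tet2 WT replicate 2 (edgeR adjusted p = 0.0480).

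Of 16 tested genes of the STAT5 axis, 3 were called higher and Ghr lower, 25% in all, beside 16.2% of all tested genes. The list median was 0.35. Osm, a cytokine gene that STAT5 induces, rose by 1.05 ± 0.19, and the receptor genes for granulocyte-macrophage colony-stimulating factor, Csf2ra and Csf2rb, rose by 0.75 ± 0.14 and 0.71 ± 0.18. Under pan-macrophage scaling these were 0.36, 0.05 and 0.03, and not called. Csf2rb also lost its call without Tet2 KO replicate 2 or 3 or Tet2 WT replicate 1 or 3 (edgeR adjusted p from 0.0520 to 0.113). Stat5a and Stat5b did not pass the test, at 0.40 ± 0.14 and 0.20 ± 0.12 (edgeR adjusted p = 0.0952 and 0.335).

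STAT dimers bind the spaced palindromes TTCNNNGAA, favoured by STAT5 and others, and TTCNNNNGAA, favoured by STAT6, and these were looked up in promoter windows of 250 bases before to 50 after RefSeq start sites (build GRCm38.p6). Of the 10 genes, 7 had such windows, 9 in all; Arg1, Tgm2 and Socs2 had none in the table. Both motifs read the same on either strand. TTCNNNGAA was in 2 of the 9 windows, those of Cish and Chil3, and in 8.30% of all 32851 windows. TTCNNNNGAA was in 1 of the 9 windows, that of Retnla, and in 6.95% of all windows. No test was made on so few windows. The Cish window held TTCNNNGAA at 2 places, beginning at the RefSeq start site and 11 bases after it, as 0.457% of all windows do 2 or more times. Cish-201, given 58.9% to 97.7% of the gene's TPM in these libraries, is annotated to start upstream of this window, at 107296026. For that transcript the matches do not lie at the start. The 3 windows with a match are shown with the matches in capitals. A match describes the letters and says nothing of binding in these cells.
Cish chr9:107296409-107296708 (+): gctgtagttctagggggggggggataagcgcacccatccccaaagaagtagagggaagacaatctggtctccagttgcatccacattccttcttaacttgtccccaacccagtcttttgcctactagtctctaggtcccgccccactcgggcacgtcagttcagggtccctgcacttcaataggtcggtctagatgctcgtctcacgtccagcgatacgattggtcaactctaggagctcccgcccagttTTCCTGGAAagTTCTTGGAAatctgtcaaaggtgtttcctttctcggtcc
Retnla chr16:48842359-48842658 (+): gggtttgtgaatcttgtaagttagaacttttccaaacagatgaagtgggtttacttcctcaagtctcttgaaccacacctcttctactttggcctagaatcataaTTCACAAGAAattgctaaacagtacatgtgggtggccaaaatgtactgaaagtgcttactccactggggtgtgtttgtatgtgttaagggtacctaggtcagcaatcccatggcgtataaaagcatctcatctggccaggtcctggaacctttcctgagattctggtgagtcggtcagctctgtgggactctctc
Chil3 chr3:106167515-106167814 (-): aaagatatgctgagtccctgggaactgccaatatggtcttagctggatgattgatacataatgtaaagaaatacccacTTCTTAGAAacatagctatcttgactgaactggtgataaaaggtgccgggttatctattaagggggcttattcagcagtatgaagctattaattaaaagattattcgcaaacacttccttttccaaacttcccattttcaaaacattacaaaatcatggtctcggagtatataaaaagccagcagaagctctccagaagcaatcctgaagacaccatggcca

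Pparg encodes the nuclear receptor that drives lipid handling in macrophages and adipocytes. The gene (ENSMUSG00000000440.12; chromosome 6, 115360951 to 115490399, plus strand) was at 39.2, 27.3 and 25.4 CPM in Tet2 KO libraries, against 15.8, 20.6 and 15.6 CPM in Tet2 WT. All Tet2 KO libraries were above all Tet2 WT libraries, and Tet2 KO replicate 1 was the highest. The log2 fold change of Pparg was 0.82 ± 0.20 (edgeR adjusted p = 0.0226). Pparg lost its call without Tet2 KO replicate 1, Tet2 WT replicate 1 or Tet2 WT replicate 3 (edgeR adjusted p = 0.0664, 0.0914 and 0.0786). The TPM ratio of Pparg to Csf1r was 0.0252, 0.0208 and 0.0164 in Tet2 KO and 0.0232, 0.0226 and 0.0183 in Tet2 WT, with overlap. Nearest to the profile of Pparg lay the kinase gene Map4k1, Aif1, itself one of the pan-macrophage markers, and Fam213b (root mean square differences of 0.05, 0.08 and 0.08 log2 units, where Pparg varied by 0.46). Alveolar macrophages and adipocytes are known for high Pparg. The 7 alveolar macrophage markers summed to 29.9 to 45.9 CPM in Tet2 KO libraries and 59.0 to 64.5 CPM in Tet2 WT, with Marco at 0 in all libraries. Bhlhe41, the 1 gene of 4 tested that was called, lower, carried 17.5 to 37.2 CPM of that sum in Tet2 KO libraries and 51.1 to 54.9 CPM in Tet2 WT. The other 6 summed to 8.69 to 13.8 CPM in Tet2 KO libraries and 5.03 to 10.7 CPM in Tet2 WT, with overlap, and the list median was 0.23. The 8 adipocyte markers summed to 26.7 to 29.0 CPM in Tet2 KO libraries and 17.7 to 26.4 CPM in Tet2 WT, with none at 0 in all libraries, and 0 of 3 tested were called by edgeR, DESeq2 or limma voom, while 1 had an unadjusted p under 0.05. Their part in the Pparg result was not tested. For Il4ra the nearest profiles were Tmem191c, Gpr146 and Kank3 (0.04, 0.05 and 0.05, where Il4ra varied by 0.32). Of these only Kank3 was called (edgeR adjusted p = 0.0233, against 0.147 for Tmem191c and 0.0728 for Gpr146).

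Pparg transcripts start at several promoters. Pparg-202, which starts first, was at 16.3, 9.97 and 9.30 TPM in Tet2 KO libraries and 8.31, 9.66 and 7.39 TPM in Tet2 WT. Pparg-204, which starts at a downstream first exon, was at 9.67, 7.71 and 7.07 TPM in Tet2 KO libraries and 2.84, 4.83 and 4.07 TPM in Tet2 WT. Pparg-202 overlapped between the groups and Pparg-204 did not. The share of the gene's TPM given to Pparg-204 was 33.5%, 37.5% and 35% in Tet2 KO and 21.7%, 26.9% and 26.4% in Tet2 WT, without overlap. Pparg-201, whose first exon marks the form known from adipocytes, was at 0.80 TPM or less in every library. The RefSeq start nearest to Pparg-204 lies 57 bases beyond the start of that transcript, and another lies at the first base of Pparg-201. Both windows are shown because Pparg-204 had no overlap between the groups and Pparg-201 was nearly unused; the first held 13 CpG dinucleotides and 62.7% G and C, the second 2 and 40.3%. Neither held either STAT motif.
Pparg, RefSeq start nearest Pparg-204, chr6:115362099-115362398 (+): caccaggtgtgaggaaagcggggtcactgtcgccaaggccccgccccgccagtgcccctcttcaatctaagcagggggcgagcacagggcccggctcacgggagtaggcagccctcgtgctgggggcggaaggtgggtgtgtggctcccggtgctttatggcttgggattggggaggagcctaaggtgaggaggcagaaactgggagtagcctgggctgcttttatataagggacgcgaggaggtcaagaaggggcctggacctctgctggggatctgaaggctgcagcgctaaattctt
Pparg, start of Pparg-201, chr6:115421816-115422115 (+): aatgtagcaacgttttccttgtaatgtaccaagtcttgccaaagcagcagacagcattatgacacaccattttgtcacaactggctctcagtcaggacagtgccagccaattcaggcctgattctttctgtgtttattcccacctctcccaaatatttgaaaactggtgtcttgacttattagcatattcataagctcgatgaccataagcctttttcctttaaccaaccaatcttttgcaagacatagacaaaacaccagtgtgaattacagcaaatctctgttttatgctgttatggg

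Ppard, the related receptor that senses fatty acids in many tissues, was at 7.0, 6.26 and 5.13 CPM in Tet2 KO libraries and 3.85, 4.10 and 6.50 CPM in Tet2 WT (ENSMUSG00000002250.16; chromosome 17, 28232700 to 28301474, plus strand). Tet2 WT replicate 3 lay among the Tet2 KO libraries, and the gene did not pass the test (0.35 ± 0.30, edgeR adjusted p = 0.506). Pparg exceeded Ppard in TPM by 3.74, 4.0 and 3.83 times in Tet2 KO and by 3.83, 4.69 and 2.48 times in Tet2 WT. Most Ppard TPM was assigned to transcripts annotated as retained introns. Of these Ppard-209 took a mean of 54.8% in Tet2 KO and 43.9% in Tet2 WT. The coding Ppard-201 averaged 0.424 TPM in Tet2 KO and 0.514 TPM in Tet2 WT (7.06% and 12.1% of the gene), with overlap. The gene's level and these ratios therefore describe mostly non-coding Ppard signal. The third family member, Ppara, best known from liver, was called lower, at 0, 0.233 and 0.0383 CPM in Tet2 KO libraries and 0.706, 0.881 and 1.71 CPM in Tet2 WT (edgeR adjusted p = 0.0328). That call rests on few counts and was lost in the 5 fits without a library other than Tet2 KO replicate 2 (edgeR adjusted p from 0.0583 to 0.135).

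Of the 12 tested partner and cofactor genes, Rxrb was called higher (0.57 ± 0.15, edgeR adjusted p = 0.0292) and Ppara lower. That is 16.7% called, beside 16.2% of all tested genes. Rxrb lost its call without Tet2 KO replicate 1 or 3 or Tet2 WT replicate 1 or 3 (edgeR adjusted p from 0.0523 to 0.109), and turned to -0.14 under pan-macrophage scaling. Rxra, the main partner of PPARG, had 0.59 ± 0.23 (edgeR adjusted p = 0.122), and was called higher without Tet2 KO replicate 2 (edgeR adjusted p = 0.0107).

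Genes that PPARs are known to induce moved in both directions. Of 20 tested, 2 were called higher and 5 lower, 35% in all, beside 16.2% of all tested genes. The list median was 0.06. The lipid droplet gene Plin2 and the mitochondrial carrier gene Ucp2 rose by 0.63 ± 0.14 and 0.65 ± 0.14. Both turned below 0 under pan-macrophage scaling (-0.09 and -0.04) and lost their calls without Tet2 KO replicate 3 (edgeR adjusted p = 0.0590 and 0.0568). Pdk4, which spares glucose by inhibiting pyruvate dehydrogenase, fell by 2.04 ± 0.32 on the log2 scale. Lpl, which encodes lipoprotein lipase, and its inhibitor gene Angptl4 fell by 1.03 ± 0.20 and 1.31 ± 0.27. Angptl4 lost its call without Tet2 WT replicate 1 (edgeR adjusted p = 0.0603). Fibroblast markers fell with these genes, with a median of -3.01. Their part in these falls was not tested.

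Retnla, which encodes the secreted resistin-like molecule alpha (RELM-alpha), was the most abundant of the 10. The gene (ENSMUSG00000061100.4; chromosome 16, 48842551 to 48844461, plus strand) was at 1092, 1221 and 951 CPM in Tet2 KO libraries, against 614, 1518 and 876 CPM in Tet2 WT. The Tet2 WT libraries spanned 2.47-fold and enclosed the Tet2 KO libraries. No difference passed the test (0.12 ± 0.29, edgeR adjusted p = 0.843), and the direction of the fitted value turned without Tet2 WT replicate 1 (-0.12, edgeR adjusted p = 0.842). Relatives of Retnla took almost no reads: Retnlb had 0 counts and Retnlg at most 2 in any library, and Retn had 3.03 to 14.6 counts in Tet2 KO and 8.35 to 10.4 in Tet2 WT.

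Chil3, which encodes the chitinase-like protein Ym1, varied most. Chil3 (ENSMUSG00000040809.10; chromosome 3, 106147554 to 106167564, minus strand) had 344, 100 and 4 estimated counts in Tet2 KO and 64, 32 and 27 in Tet2 WT. Tet2 KO thus held both the highest libraries and the lowest one. Its log2 fold change was 2.37 ± 1.21 and did not pass the test (edgeR adjusted p = 0.250). Without Tet2 KO replicate 3 it was called higher (2.95, edgeR adjusted p = 0.0314), and without Tet2 KO replicate 1 it was 0.40 (edgeR adjusted p = 0.882). The 10 monocyte markers, Chil3 among them, summed to 3998 to 5858 CPM in Tet2 KO libraries and 3269 to 4480 CPM in Tet2 WT. Of these 1 was called higher, 1 lower and none was at 0 in all libraries. F13a1, also listed among the further markers of alternative activation, carried most of that sum. With the scaling used for single genes, it averaged 3999 of 5391 CPM in Tet2 KO and 2693 of 3570 CPM in Tet2 WT. The part of the monocyte markers in the Chil3 values was not tested. Of the relatives, Chil4 had 3 counts in Tet2 KO replicate 2, 15 in Tet2 WT replicate 2 and 0 elsewhere. Chil6 had 23 counts in Tet2 WT replicate 3 and 0 elsewhere, Chia1 and Chit1 had 0, and Chil1 and Chil5 did not pass the test (edgeR adjusted p = 0.701 and 0.391).

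Arg1, the arginase by which alternatively activated mouse macrophages divert arginine from nitric oxide, was scarce. The gene (ENSMUSG00000019987.9; chromosome 10, 24915221 to 24927484, minus strand) had 16, 69 and 23 estimated counts in Tet2 KO and 10, 44 and 32 in Tet2 WT, which is at most 1.34 CPM. The groups overlapped and Arg1 did not pass the test (0.52 ± 0.69, edgeR adjusted p = 0.688); without Tet2 KO replicate 2 the fitted value turned to -0.21. Nos2, the competing nitric oxide synthase, and Arg2 were also low, at 1.95 ± 0.321 and 0.619 ± 0.256 CPM in Tet2 KO libraries and 1.49 ± 1.18 and 0.631 ± 0.447 CPM in Tet2 WT. Neither passed the test (edgeR adjusted p = 0.705 and 0.986). In arginine metabolism 2 of 11 tested genes were called, 18.2% beside 16.2% of all tested genes, with a median of -0.31. The transporter gene Slc7a7 was called higher (0.71 ± 0.16), and the spermidine synthase gene Srm lower (-0.59 ± 0.15). Both lost their calls without Tet2 KO replicate 3 or Tet2 WT replicate 1 or 3 (edgeR adjusted p from 0.0521 to 0.0632 for Slc7a7 and from 0.0641 to 0.119 for Srm), and Slc7a7 was at 0.01 under pan-macrophage scaling.

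Ear2 encodes an eosinophil-associated ribonuclease that monocyte-derived macrophages also express. Ear2 (ENSMUSG00000072596.4; chromosome 14, 44102654 to 44103534, plus strand) was at 23.0, 36.2 and 19.0 CPM in Tet2 KO libraries and 17.3, 27.5 and 9.49 CPM in Tet2 WT. The groups overlapped and the gene did not pass the test (0.53 ± 0.38, edgeR adjusted p = 0.421). Of the reads assigned to Ear genes and pseudogenes, 98.4% to 99.9% in Tet2 KO and 98.5% to 99.6% in Tet2 WT fell on Ear2. None of the other Ear family genes had enough counts to be tested. Of 6 eosinophil markers Epx and Prg2 were at 0 in all libraries, 0 of the 3 tested were called by edgeR, DESeq2 or limma voom or had an unadjusted p under 0.05, and their sum was 1.52 to 2.26 CPM in Tet2 KO libraries and 1.70 to 2.24 CPM in Tet2 WT.

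Retnla, Ear2 and Arg1 shared their highest libraries. Within each genotype, replicate 2 was the highest for all 3 genes, and replicate 2 of each genotype was also the library with the lowest fibroblast marker sum. The pooled SD of log2 CPM within a genotype was 0.48 for Retnla, 0.62 for Ear2, 0.51 for Arg1 and 1.51 for Chil3. These lay at the 88.5th, 95.6th, 90.5th and 99.9th percentiles of all tested genes, whose median was 0.24, whereas Il4ra at 0.18 lay at the 29.8th.

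Tgm2 encodes transglutaminase 2, which crosslinks proteins and is a marker of alternative activation in mouse and human macrophages; endothelial cells and fibroblasts are also known to express it. The gene (ENSMUSG00000037820.15; chromosome 2, 158116402 to 158146436, minus strand) was at 22.4, 26 and 14.7 CPM in Tet2 KO libraries, against 61.8, 43.8 and 68.3 CPM in Tet2 WT. Each Tet2 KO library was below each Tet2 WT library. The log2 fold change of Tgm2 was -1.46 ± 0.24 (edgeR adjusted p = 0.00310), and it was called lower in all 19 alternative settings (-2.19 to -1.26). Nearly all of it was Tgm2-201, at 8.18, 9.07 and 5.36 TPM in Tet2 KO libraries and 24.9, 17.3 and 29.1 TPM in Tet2 WT. Of 4 tested transglutaminase relatives, 0 were called by edgeR and 1 had an unadjusted p under 0.05, with a median of -0.05 on the log2 scale; DESeq2 called 1 and limma voom 0.

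Tgm2 followed the stromal markers in part. Relative to Col1a2 its level in TPM was 0.645, 0.995 and 0.401 in Tet2 KO and 0.199, 0.229 and 0.237 in Tet2 WT, higher in every Tet2 KO library. The 14 endothelial markers summed to 177 to 282 CPM in Tet2 KO libraries and 267 to 482 CPM in Tet2 WT libraries (p = 0.2, two-sided exact permutation test); none was at 0 in all libraries. Tek, Ly6c1 and Eng were called lower and 0 higher, while 9 of the 14 had a positive log2 fold change and the list median was 0.23. Without these 3 genes, a split chosen after seeing the data, the other 11 summed to 104 to 183 CPM in Tet2 KO libraries and 79.4 to 214 CPM in Tet2 WT. The 10 pericyte and smooth muscle markers summed to 35.1 to 66.2 CPM in Tet2 KO libraries and 130 to 210 CPM in Tet2 WT, with none at 0 in all libraries. Only Pdgfrb and Abcc9 of the 10 were called, both lower, and the other 8 overlapped at 23.2 to 52.0 CPM in Tet2 KO libraries and 44.6 to 79.4 CPM in Tet2 WT. Within each genotype the order of the libraries was the same for Tgm2 as for the sum of all 10 and for the sum of the other 8. The sum of Pdgfrb and Abcc9 had another order in both genotypes. It was 19.3, 14.2 and 11.8 CPM in Tet2 KO replicates 1, 2 and 3, and 142, 85.2 and 130 CPM in Tet2 WT. The fibroblast sum also differed from Tgm2 in order in both genotypes, and was lowest in Tet2 KO replicate 2, where Tgm2 was highest. The nearest profiles to Tgm2 were those of the endothelial diaphragm gene Plvap, the guanylate cyclase subunit gene Gucy1b1 and Sntg1. Their root mean square differences from Tgm2 were 0.14, 0.15 and 0.15 log2 units, where Tgm2 varied by 0.79. Their fitted log2 fold changes were -2.18 ± 0.56, -1.91 ± 0.46 and -2.31 ± 0.64, each a larger fall than that of Tgm2. The part of fibroblast, endothelial, and pericyte and smooth muscle RNA in the Tgm2 result was not tested.

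Of 29 tested further markers of alternative activation, 7 were called higher and 2 lower, 31.0% in all, beside 16.2% of all tested genes. The list median was 0.37. The lectin genes Mgl2 and Cd209a rose by 0.81 ± 0.17 and 0.80 ± 0.16, and the cyclooxygenase gene Ptgs1 by 0.86 ± 0.21; under pan-macrophage scaling these stood at 0.090, 0.065 and 0.14 and were not called. Cd209a is also a dendritic cell marker, a list of which 1 of 9 genes was called higher and 1 lower, with none at 0 in all libraries and sums of 95.0 to 114 CPM in Tet2 KO libraries and 91.9 to 113 CPM in Tet2 WT. Pdcd1lg2, the checkpoint ligand PD-L2, had 10, 38 and 35 estimated counts in Tet2 KO and 0, 2 and 0 in Tet2 WT (edgeR adjusted p = 0.00773; 0.0530 without Tet2 WT replicate 1). Mrc1, the mannose receptor gene most used to mark this state, averaged 1296 ± 137 CPM in Tet2 KO libraries and 1003 ± 183 CPM in Tet2 WT and did not pass the test (0.37 ± 0.17, edgeR adjusted p = 0.179). Lower were Slc7a2, a cationic amino acid transporter gene (-2.24 ± 0.33), and the ribonuclease gene Rnase4 (-0.58 ± 0.17). Slc7a2 had the library order of the fibroblast marker sum within each genotype, and Rnase4 had it in Tet2 WT alone. Fibroblast markers fell as well, with a median of -3.01, and their part in these falls was not tested. Rnase4 was called in 0 of 6 fits that each omitted 1 library (edgeR adjusted p from 0.0521 to 0.144, with 0.0521 without Tet2 KO replicate 2). Ptgs1 lost its call without Tet2 KO replicate 1 or 3 or Tet2 WT replicate 1 or 3 (edgeR adjusted p from 0.0560 to 0.0825). Over all lists, without the 10 genes, 21 of 122 tested genes were called higher and 12 lower, 27.0% in all, beside 16.2% of tested genes.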

How the data were processed

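Paired-end RNA-seq of 3 Tet2 KO and 3 Tet2 WT libraries was analysed. The submitters' processing notes name Trim Galore 0.6.4, kallisto 0.44.0 and GRCm38, and the series text puts trimming before kallisto's assignment to transcripts. Per the file headers, the authors deposited estimated counts and TPM per transcript; the counts are not normalized, and TPM is scaled within each library. Of 118783 transcripts 98.2% matched GENCODE M21 by identifier without version, which gives gene names, and the rest, at most 0.671% of a library's counts, were left out.

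Estimated counts were summed per gene and rounded. The filter on low counts (filterByExpr), TMM scaling and the robust quasi-likelihood test on genotype alone were those of edgeR 4.0.16 in R 4.3.3, with Benjamini-Hochberg adjustment over 16386 genes. CPM values are TMM-scaled, and marker sums use each library's own total. A standard error is the absolute log2 fold change over the square root of F. The test was checked on simulated counts. Totals of 37349505 to 55771087 counts and 3 libraries per group limit the precision. No 2 libraries of the same genotype agreed within sampling noise (chi-square per gene at least 69.3).

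The members and lists were chosen with earlier results of these data known. The genes named were set by rule: the 10 members and Tet2; up to 4 called genes per list and direction by smallest p; 20 receptor, signalling and marker genes and the paralogs, whatever their values; and the 3 nearest profiles (centred log2(CPM + 0.5), protein-coding genes) of each called member. A gene that the rule names is not reported here. Genes named only as examples or main contributors of a marker list or as denominators of ratios (Adgre1, Csf1r, Lyz2, F13a1, Pdgfra, Col1a1, Col1a2, Gsn and Dcn) were added. Alternatives were other scalings and filters, omission of libraries, a block for the replicate number, length-scaled TPM counts, paralogs summed, DESeq2 1.42.0, limma 3.58.1 voom and limma on log2(TPM + 1) and log2(TPM + 0.1).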

Additional observations from a re-analysis of the deposited data

How the results depend on the processing

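Socs2 and Tgm2 kept their direction and their calls in all 19 alternatives, among them each library left out, the replicate block, DESeq2, limma voom and limma on TPM. Il4ra and Pparg were each called in 12 of 19: besides the fits without 1 library given above, both lost the call without Tet2 KO replicate 1 and Tet2 WT replicate 1 together, under pan-macrophage scaling and with limma on log2(TPM + 1) and log2(TPM + 0.1). The number of the 10 genes called was 2 in those 4 settings, with 0 higher, and ranged from 2 to 4 (0 to 2 higher) over the fits without 1 library each. The cause was not tested.

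Genes called came to 2653 (genes called, higher: 1001; genes called, lower: 1652). Pan-macrophage scaling gave 7130, with 19 higher and 7111 lower; without both replicates 1 there were 1188 (177 and 1011); limma on log2(TPM + 1) and log2(TPM + 0.1) called 384 and 400 higher. Without 1 library each, 1382 to 3141 genes were called, 350 to 1402 higher and 1032 to 1739 lower. Of the list genes 33 were called, 21 higher and 12 lower. Pan-macrophage scaling gave 1 higher and 43 lower, the fit without both replicates 1 gave 14 (8 and 6), limma on TPM gave 10 higher with either pseudocount, and the fits without 1 library each gave 16 to 36 (9 to 26 higher, 6 to 11 lower).

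Signs of log2 fold changes turned as follows, all of genes that were not called in the same setting except Jak1 under pan-macrophage scaling. Under that scaling, which shifted the median of all genes by -0.71, Tet2 was at -0.38, Arg1 -0.061, Retnla -0.53, Il4ra -0.14, Ear2 -0.13, Cish -0.37, Ppard -0.37, Il13ra1 -0.072, Jak1 -0.62, Stat6 -0.12, Irf4 -0.49, Kdm6b -0.52, Mrc1 -0.32, Nos2 -0.32, Rxra -0.15, Stat5a -0.31, Stat5b -0.51, Socs1 -0.66, Socs3 -0.37, Ptpn1 -0.17, Rxrb -0.14, Plin2 -0.092 and Ucp2 -0.043. With limma on log2(TPM + 1), Arg1 was at -0.12, Jak1 -0.10 and Socs1 -0.076; on log2(TPM + 0.1), Arg1 -0.17, Cish -0.0058, Jak1 -0.10 and Socs1 -0.091; with length-scaled TPM counts Arg1 was at -0.072; Arg2 was at 0.11 with limma voom. Without both replicates 1, Retnla was at -0.14, Irf4 -0.016 and Arg2 0.74, and Socs1, not reversed, was at 0.27. Over the fits without 1 library each, Arg1 ranged from -0.21 to 0.95, Retnla from -0.12 to 0.56, Irf4 from 0.047 to 0.44, Kdm6b from -0.39 to 0.45, Socs1 from -0.11 to 0.18 and Arg2 from -0.38 to 0.73.

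The labels state no pairing. The correlations of same-numbered libraries' deviations from their group means were 0.078, 0.17 and 0.059. Those of the other pairs ran from -0.13 to 0.067, the highest between Tet2 KO replicate 3 and Tet2 WT replicate 1. Each Tet2 WT library correlated most with the Tet2 KO library of the same number. With correlations this small, whether the numbers pair the libraries was left undecided. With the replicate block genes called came to 2347, 4 of the 10 members among them; Arg2 turned to 0.10, and Il13ra1, Stat6, Ptgs1 and Rxrb were not called. Tet2 was called higher with length-scaled TPM counts (0.43, edgeR adjusted p = 0.0458). Summing near-identical copies changed no call of Ear2, Chil3 or Retnla (0.53, 2.21 and 0.12). With TMM-scaled libraries the ratio of Tet2 KO to Tet2 WT was 0.151 for the fibroblast sum and 1.63 for the pan-macrophage sum, against 0.135 and 1.47. Arg1 was left out by the stricter filter. Arg1, Chil3 and Cish were the members of lowest counts; for Chil3 the spread between libraries was the widest of the 10 (pooled SD 1.51 on the log2 scale).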
